A study of Saccharomyces cerevisiae with 72 samples.

Results

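The 44 genes described here are the nuclear genes of the TCA cycle and the respiratory chain of budding yeast: 10 genes of TCA cycle enzymes, 4 of complex II (succinate dehydrogenase, which is also a TCA cycle enzyme), 3 of the NADH dehydrogenases, 9 of complex III, 2 of cytochrome c, 9 of complex IV (cytochrome c oxidase) and 7 of complex V (ATP synthase). The rule lists them by name and uses no measured value, although it was drawn up with earlier results of these data known. They are 44 of 6874 genes measured in the series, and all 44 were present in both deposited tables. RNA was sequenced in 72 libraries from 8 strains, each sampled before and at 20 and 60 min after 1 uM estradiol, with 3 biological replicates per strain and time. A Z3EVp_ strain (Z3EVp_YOX1, Z3EVp_yox1_9A, Z3EVp_YHP1 or Z3EVp_yhp1_13A) carries the estradiol-responsive promoter in front of YOX1, YHP1 or the phosphomutant allele of either without its Cdk1 sites, while in its ctrl_ strain that allele is driven from its native promoter and the inducible promoter drives HO instead. All 8 strains share the 3V5 tag on the factor, the BY4741 background, MATa, and the alleles ura3∆0, his3∆1, lyp∆0 and can1∆::STE2pr-SpHIS5. Every strain also has the estradiol-binding activator Z3EV behind the ACT1 promoter, marked with NatMX next to a HAP1+ allele, and was grown asynchronously in rich medium with 2% dextrose. YOX1 and yox1_9A strains are in one table (the YOX1 experiment) and YHP1 and yhp1_13A strains in the other (the YHP1 experiment), with 36 libraries each.

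In yeast growing on glucose, transcription of respiratory genes is held down by glucose repression. The Hap2/3/4/5 complex, whose limiting subunit is Hap4, activates most of them, and CIT1, ACO1, IDH1 and IDH2, which make 2-oxoglutarate for glutamate synthesis, are also targets of Rtg1 and Rtg3, the activators of the retrograde response to mitochondrial state. COX5B and CYC7 encode the hypoxic forms of a cytochrome oxidase subunit and of cytochrome c, and COX5A and CYC1 the aerobic forms. Yox1 and Yhp1 are homeodomain repressors of cell cycle genes that act with the MADS-box factor Mcm1.

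Because CIT1, ACO1 and IDH1 were among the genes that changed most in the control strains, the parts of their upstream regions that hold matches to the core of the Rtg1/Rtg3 site (GTCAC) or the Hap complex site (CCAAT) are shown first, with SDH2 of complex II, which has a pair of CCAAT matches within 33 bases. Each runs 5′ to 3′ on the coding strand of its gene, in genome build R64 from RefSeq, and the matches, read on either strand, are in capitals. The positions are chrXIV:631341-631461 for CIT1, chrXII:737748-738008 for ACO1, chrXIV:559342-559487 for IDH1 and chrXII:54071-54103 for SDH2, and all 4 genes are on the minus strand.
CIT1: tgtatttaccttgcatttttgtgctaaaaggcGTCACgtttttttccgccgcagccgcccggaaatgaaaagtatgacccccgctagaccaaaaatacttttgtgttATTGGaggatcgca
ACO1: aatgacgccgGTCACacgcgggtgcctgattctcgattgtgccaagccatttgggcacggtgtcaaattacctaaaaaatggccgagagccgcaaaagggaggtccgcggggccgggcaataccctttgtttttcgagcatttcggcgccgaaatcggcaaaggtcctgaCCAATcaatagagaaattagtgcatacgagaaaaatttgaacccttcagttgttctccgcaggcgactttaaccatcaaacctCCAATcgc
IDH1: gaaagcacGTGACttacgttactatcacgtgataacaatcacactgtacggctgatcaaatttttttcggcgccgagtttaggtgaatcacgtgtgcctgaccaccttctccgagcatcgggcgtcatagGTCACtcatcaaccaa
SDH2: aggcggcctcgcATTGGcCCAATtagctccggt
In the 500 bases before the start codon, CCAAT or its reverse complement occurred in 38 of the 44 genes (86.4%), against 62.4% of 6000 annotated genes. GTCAC occurred in 26 of the 44 (59.1%), against 42.5% of all genes, and in 3 of the 4 genes CIT1, ACO1, IDH1 and IDH2. The longer Hap1 site, a pair of CGG triplets spaced around TA, was found for 1 of the 44 (2.27%), against 0.35% of all genes. A match is a description of the sequence, and the windows of neighbouring genes can overlap.

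Expression is given in TPM (a read abundance scaled by transcript length and library total), and changes are differences of log2(TPM + 1), tested with limma over all genes. A gene was called changed where its adjusted p was under 0.05 and its log2 difference above 0.58 in size, the thresholds of the study. The labels and the methods differ on whether poly-A RNA was removed or kept for the libraries, so which RNA the TPM are shares of is not known. The depth of the libraries is unknown from TPM, and each library had a correlation of at least 0.9938 with its closest other library of its table. The induced genes followed the labels. YOX1 mRNA was 440 to 1245 TPM at 20 min in the YOX1 experiment's Z3EVp_ strains, against 133 to 166 TPM in their ctrl_ strains, and YHP1 mRNA was 769 to 903 TPM in the YHP1 experiment's Z3EVp_ strains, against 49.8 to 85.2 TPM in their ctrl_ strains. HO mRNA in the ctrl_ strains was 4.02 to 8.70 TPM at 0 min, 305 to 415 TPM at 20 min and 346 to 496 TPM at 60 min, so estradiol, induction of HO and the time passed cannot be told apart in these strains. The a-cell markers MFA1, MFA2, STE2, STE6, BAR1 and AGA2 summed to 762 to 9160 TPM in the Z3EVp_ strains and 6804 to 10558 TPM in the ctrl_ strains of the YOX1 experiment, and the alpha-cell markers to 22.9 to 39.5 TPM in all libraries, with no marker of either list at 0 throughout. In the YHP1 experiment replicate 3 had the lowest summed level of the 44 genes in 12 of 12 groups, and results that rest on a replicate number are given with and without it. The labels call the replicates biological, and the sources do not say whether the 3 times came from the same cultures. A lower level in these bulk samples can reflect fewer cells that express a gene or less RNA per cell, which cannot be told apart.

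Before estradiol the 44 genes covered a wide range of levels. The lowest was NDE2, an external NADH dehydrogenase of the inner membrane, at 1.89 TPM on average over the 6 ctrl_ libraries of the YOX1 experiment, and the highest was CYC1 at 925 TPM. Complex II ranged from 25.1 TPM for SDH1 (its flavoprotein subunit) to 212 TPM for SDH3 (a membrane anchor subunit). Complex III was at 175 TPM for COR1 to 536 TPM for QCR7, complex IV at 33.0 TPM for COX5B to 533 TPM for COX9, and complex V at 179 TPM for ATP4 to 663 TPM for ATP2. TCA cycle genes lay lower, between 40.7 TPM for KGD1, a subunit of 2-oxoglutarate dehydrogenase, and 190.3 TPM for IDH2. None of the 44 was called between a Z3EVp_ strain and its ctrl_ strain at 0 min by limma, where 7, 20, 9 and 9 of all genes were called for YOX1, yox1_9A, YHP1 and yhp1_13A (0.112%, 0.32%, 0.144% and 0.144%) and 1, 6, 1 and 2 of the 44 had an unadjusted p under 0.05. These small differences were mostly positive, with 39, 30, 44 and 43 of the 44 genes above 0 in that order (65.4%, 38.2%, 71.2% and 63.0% of all genes) and medians of 0.08, 0.09, 0.17 and 0.12, beside 0.04, -0.05, 0.06 and 0.03 for all genes. Each strain's change is taken from its own 0 min level, so these differences enter the subtracted changes. Between phosphomutant and wild type ctrl_ strains at 0 min no gene was called (0%), and none of the 44 had an unadjusted p under 0.05 in either experiment.

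Together the 44 genes took a larger part of the measured RNA after estradiol, in Z3EVp_ and ctrl_ strains alike. In the YOX1 experiment their share of all TPM over 12 libraries per time had a lowest, median and highest value of 0.934%, 1.07% and 1.19% at 0 min, 1.65%, 1.85% and 2.17% at 20 min and 1.25%, 1.34% and 1.42% at 60 min. In the YHP1 experiment it was 0.838%, 1.04% and 1.14% at 0 min, 1.15%, 1.60% and 1.73% at 20 min and 0.948%, 1.34% and 1.46% at 60 min. Every library of the YOX1 experiment was higher at 20 min than all of its libraries at 0 and 60 min. In the YHP1 experiment the range at 60 min overlapped both that at 0 min and that at 20 min. These ranges pool the Z3EVp_ and ctrl_ libraries.

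The first comparison asks what the ctrl_ strains, whose factor stays at its own promoter, did after estradiol. Among groups of 4 or more genes, those of the TCA cycle (medians 1.05, 0.96, 0.96 and 0.87 at 20 min in ctrl_YOX1, ctrl_yox1_9A, ctrl_YHP1 and ctrl_yhp1_13A, with 9, 8, 7 and 6 of 10 called) and complex II had the highest median changes, and no ATP synthase gene passed the threshold in any strain. At 20 min 26 of the 44 genes rose in ctrl_YOX1 and none fell, against 7.99% of all 6255 tested genes that rose and 7.64% that fell, and 25 rose in ctrl_yox1_9A (7.1% of all genes rose and 8.9% fell). In ctrl_YHP1 19 rose and none fell (7.58% and 11.6% of 6230 genes), and in ctrl_yhp1_13A 15 rose (7.08%) and 1, NDE1, fell (10.4%). The median change of the 44 was 0.70, 0.69, 0.57 and 0.52 in these 4 strains in that order, beside 0.03, -0.03, -0.04 and -0.03 for all genes tested. All 3 libraries at 20 min lay above all 3 at 0 min for 42 of the 44 genes in ctrl_YOX1 (26.4% of all genes), 42 in ctrl_yox1_9A (25.8%), 21 in ctrl_YHP1 (19.8%) and 19 in ctrl_yhp1_13A (18.4%). The counts of the YHP1 experiment depended on replicates: 23 genes were called in ctrl_YHP1 at 20 min without its replicate 3 at 20 min, 10 without its replicate 1 and 12 without its replicate 2 at 20 min or without replicate 3 at 0 min, and with all 12 libraries numbered 1 left out 9 were called, 8 higher and 1 lower. For ctrl_yhp1_13A at 20 min 10 were called without replicate 1 at 20 min or replicate 3 at 0 min, or with all libraries numbered 1 left out.

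**Figure D1:**
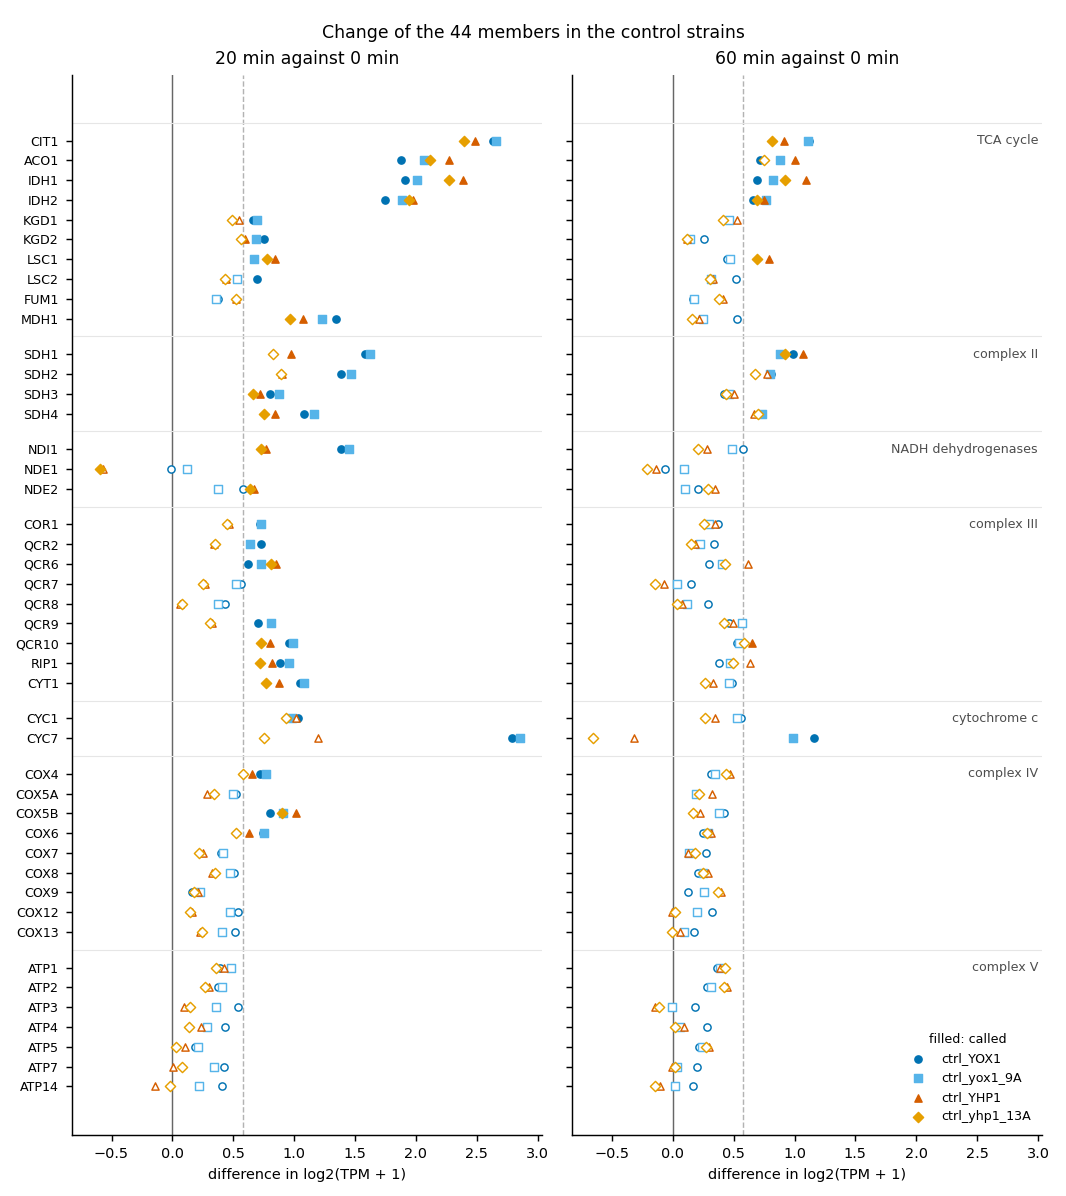
Change from 0 min in log2(TPM + 1) at 20 and 60 min for each of the 44 genes (rows, by complex) in the 4 ctrl_ strains; filled markers passed the limma thresholds. At 20 min CIT1 lies between 2.40 and 2.66 in all 4 strains, and the 7 complex V genes lie between -0.14 and 0.54 with none called.

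By 60 min fewer genes were called. The median change of the 44 was 0.35, 0.32, 0.34 and 0.28 at that time in the 4 strains in the same order, beside 0.04, -0.01, 0.03 and -0.01 for all genes. At 60 min 8 genes were called higher in ctrl_YOX1 (3.13% of all genes), 8 in ctrl_yox1_9A (2.51%), 7 in ctrl_YHP1 (3.9%) and 5 in ctrl_yhp1_13A (3.19%), and none was lower (0.735%, 1.2%, 3.47% and 4.09% of all genes). All 3 libraries at 60 min lay above all 3 at 0 min for 31 of the 44 genes in ctrl_YOX1 (19% of all genes), 24 in ctrl_yox1_9A (18.9%), 12 in ctrl_YHP1 (23.4%) and 9 in ctrl_yhp1_13A (18.2%). The YOX1 experiment's counts were 13 without replicate 1 of ctrl_YOX1 at 60 min or its replicate 3 at 0 min, and 14 without replicate 3 of ctrl_yox1_9A at 0 min. In ctrl_YHP1 the count was 16 without replicate 3 at 60 min and 4 without replicate 1 or 3 at 0 min or replicate 1 or 2 at 60 min, and in ctrl_yhp1_13A it was 11 without replicate 3 at 60 min, 8 without replicate 2 at 0 min and 3 without replicate 1 at 0 or 60 min. Set directly against 20 min, the 60 min level was lower for 8 genes in ctrl_YOX1 (2.83%), 10 in ctrl_yox1_9A (3.47%), 6 in ctrl_YHP1 (3.48%) and 6 in ctrl_yhp1_13A (3.61%), and higher for none (4.52%, 5.42%, 7.17% and 5.63% of all genes were higher). CIT1, IDH1, ACO1, IDH2 and MDH1 were among the lower genes in all 4 strains. The phosphomutant and wild type ctrl_ strains gave changes of which none differed by limma at 20 or 60 min in either experiment, for any gene (0%), and none of the 44 had an unadjusted p under 0.05.

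CIT1, the mitochondrial citrate synthase that opens the cycle, rose in all 4 ctrl_ strains at both times. In ctrl_YOX1 it had 92.9, 90.7 and 93.7 TPM at 0 min, 578, 592 and 562 TPM at 20 min and 197, 202 and 206 TPM at 60 min. The ctrl_yox1_9A libraries had 83.5, 89.8 and 111 TPM at 0 min, 659.6, 623 and 529 TPM at 20 min and 192, 209 and 213 TPM at 60 min. No library at one time overlapped those of another time in either strain, and the change at 20 min was 2.63 and 2.66 on the log2 scale (SE 0.10, adjusted p = 5.69e-18 and 6.67e-18 in limma). In ctrl_YHP1 CIT1 was at 77.0, 128 and 116 TPM at 0 min, 678, 576 and 531 TPM at 20 min and 225, 189.9 and 182 TPM at 60 min. The ctrl_yhp1_13A libraries gave 78.0, 132 and 133 TPM at 0 min, 696, 526 and 557 TPM at 20 min and 199.9, 199 and 189 TPM at 60 min. Replicate 1 was the lowest at 0 min and the highest at 20 and 60 min in both strains, and the change at 20 min was 2.49 and 2.40 (SE 0.20).

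**Figure D2:**
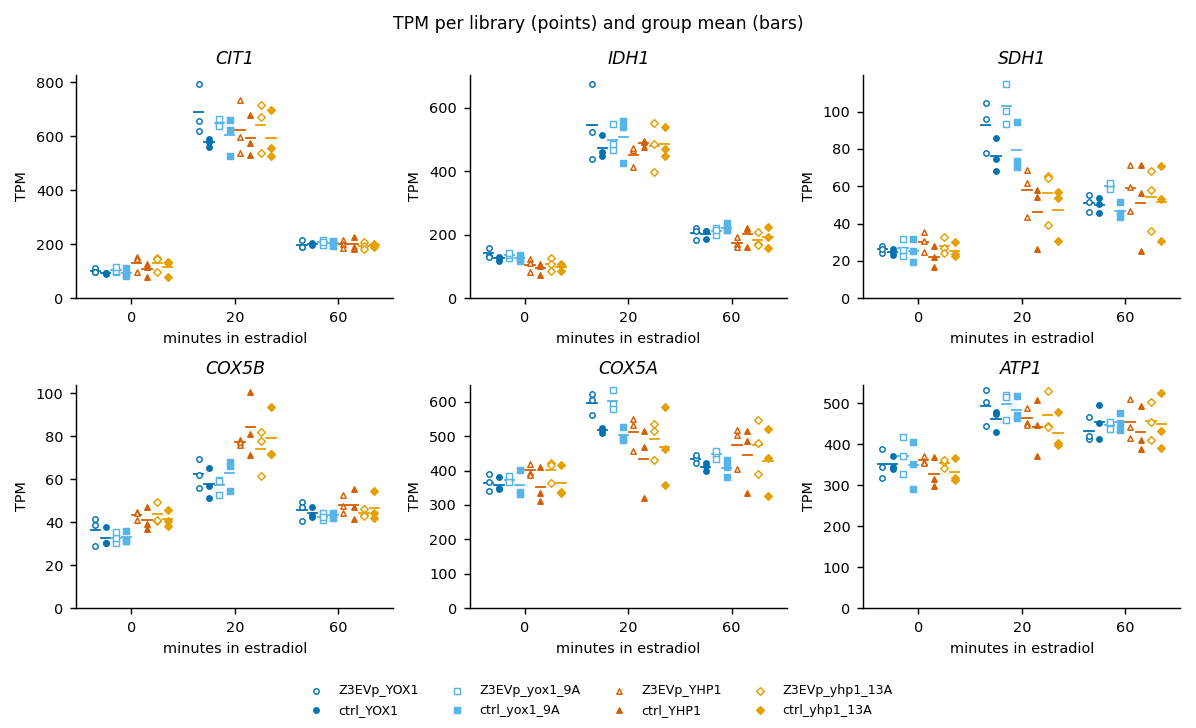
TPM of CIT1, IDH1, SDH1, COX5B, COX5A and ATP1 in every library by strain and time (points are libraries, lines are means of 3). CIT1 in ctrl_YOX1 is at 562 to 592 TPM at 20 min and 90.7 to 93.7 TPM at 0 min, and SDH1 in replicate 3 of ctrl_YHP1 is at 26.2 TPM at 20 min.

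ACO1, IDH1 and IDH2, which encode aconitase and the 2 subunits of NAD-dependent isocitrate dehydrogenase, followed CIT1 in the order of the cycle. ACO1 had 134, 133 and 113 TPM at 0 min, 448, 501 and 453 TPM at 20 min and 216, 204 and 205 TPM at 60 min in ctrl_YOX1. In ctrl_YHP1 it had 82.8, 117 and 82.5 TPM at 0 min, 520.3, 580.0 and 306 TPM at 20 min and 253, 212 and 123 TPM at 60 min. Replicate 3 was well below the other libraries at 20 and 60 min in that strain, and ACO1 passed the threshold at 60 min in every ctrl_ strain except ctrl_yhp1_13A, where the change was 0.75 (SE 0.33, adjusted p = 0.0797 in limma). IDH1 had 129.9, 127 and 118 TPM at 0 min, 448, 512 and 461 TPM at 20 min and 186, 212 and 211 TPM at 60 min in ctrl_YOX1. Its ctrl_YHP1 values were 72.6, 108 and 100.4 TPM at 0 min, 492, 474 and 494 TPM at 20 min and 221, 162 and 219 TPM at 60 min. The 3 times did not overlap in either strain, and the change at 20 min was 1.91 (SE 0.12) in ctrl_YOX1, 2.01 (SE 0.12) in ctrl_yox1_9A, 2.38 (SE 0.17) in ctrl_YHP1 and 2.27 (SE 0.17) in ctrl_yhp1_13A. IDH2 stood at 194, 185 and 198 TPM at 0 min, 608, 656 and 683 TPM at 20 min and 291, 304 and 318 TPM at 60 min in ctrl_YOX1. In ctrl_YHP1 IDH2 was at 116, 188 and 166 TPM at 0 min, 610.2, 629 and 581 TPM at 20 min and 282, 232 and 265 TPM at 60 min. Its change at 20 min was 1.75, 1.88, 1.97 and 1.94 in ctrl_YOX1, ctrl_yox1_9A, ctrl_YHP1 and ctrl_yhp1_13A, and it was called at both times in all 4. At 60 min calls in the YHP1 experiment rested on single libraries: without replicate 1 at 0 min those of IDH2 in ctrl_YHP1 (0.55) and of CIT1 and IDH2 in ctrl_yhp1_13A (0.56 and 0.44) were lost, that of IDH2 in ctrl_yhp1_13A also without replicate 1 at 60 min (0.60), and that of ACO1 in ctrl_YHP1 without replicate 1 or 3 at 0 min or replicate 1 or 2 at 60 min (0.79 to 0.93).

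The remaining TCA cycle genes moved less. MDH1, the mitochondrial malate dehydrogenase, had 102, 77.8 and 113 TPM at 0 min, 242, 273 and 226 TPM at 20 min and 117, 143 and 161 TPM at 60 min in ctrl_YOX1. Its ctrl_YHP1 libraries had 96.9, 97.5 and 109 TPM at 0 min, 234, 206 and 201 TPM at 20 min and 118, 121 and 114 TPM at 60 min. MDH1 rose in all 4 strains at 20 min, by 0.96 in ctrl_yhp1_13A to 1.35 in ctrl_YOX1, and in none at 60 min. LSC1, a subunit of succinyl-CoA ligase, had 176, 181 and 173 TPM at 0 min, 292, 285 and 268 TPM at 20 min and 261, 236 and 227 TPM at 60 min in ctrl_YOX1. In ctrl_YHP1 it had 149, 158 and 164 TPM at 0 min, 281, 291 and 273 TPM at 20 min and 269.7, 285 and 261 TPM at 60 min. LSC1 kept most of its rise in the YHP1 experiment, with 0.84 at 20 min and 0.79 at 60 min (SE 0.06) in ctrl_YHP1, beside 0.67 and 0.45 (SE 0.09) in ctrl_YOX1, where the 60 min value did not pass the fold threshold. Its partner LSC2 was called only in ctrl_YOX1 at 20 min. KGD2 (0.56 to 0.75 at 20 min) was called in 3 strains and KGD1 (0.49 to 0.70) in both strains of the YOX1 experiment, and FUM1, the fumarase gene, was called in none.

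Complex II genes had median changes of 1.23, 1.32, 0.87 and 0.79 at 20 min in ctrl_YOX1, ctrl_yox1_9A, ctrl_YHP1 and ctrl_yhp1_13A, and of 0.77, 0.77, 0.72 and 0.69 at 60 min. SDH1 had 23.2, 24.5 and 26.5 TPM at 0 min, 74.5, 85.8 and 68.4 TPM at 20 min and 53.8, 45.9 and 50.5 TPM at 60 min in ctrl_YOX1. In ctrl_YHP1 SDH1 had 22.0, 27.7 and 16.7 TPM at 0 min, 58.0, 54.2 and 26.2 TPM at 20 min and 56.2, 71.5 and 25.2 TPM at 60 min. The change of SDH1 in ctrl_YHP1 was 0.97 at 20 min and 1.07 at 60 min (SE 0.35). Replicate 3 stayed below replicate 2 at 0 min throughout, yet compared within replicate 3 alone SDH1 was still higher by 0.62 at 20 min and 0.56 at 60 min. SDH2, the iron-sulfur subunit whose paired CCAAT matches are shown above, had 61.6, 64.0 and 69.7 TPM at 0 min, 169, 178 and 166 TPM at 20 min and 114, 107 and 123 TPM at 60 min in ctrl_YOX1. In ctrl_YHP1 its values were 62.5, 73.5 and 49.1 TPM at 0 min, 165, 137 and 66.4 TPM at 20 min and 128, 159.7 and 56.7 TPM at 60 min. Among single strains SDH2 was called only in ctrl_YOX1 and ctrl_yox1_9A, by 1.38 and 1.47 at 20 min (SE 0.11). Its change of 0.90 in ctrl_YHP1 had an SE of 0.40 and libraries that overlapped those at 0 min. The mean change over both ctrl_ strains of the YHP1 experiment was called in limma. It was 0.90 at 20 min (SE 0.28, adjusted p = 0.0087) and 0.73 at 60 min (adjusted p = 0.0354). Compared within a replicate number, SDH2 in ctrl_YHP1 was still higher at 20 min than at 0 min in each. SDH4, a membrane anchor subunit, had 106, 109.5 and 115 TPM at 0 min, 247, 253 and 205 TPM at 20 min and 203, 173 and 176 TPM at 60 min in ctrl_YOX1. The ctrl_YHP1 libraries had 104, 116 and 84.3 TPM at 0 min, 215, 213 and 130.1 TPM at 20 min and 177, 227 and 103 TPM at 60 min. SDH3 and SDH4 rose in all 4 strains at 20 min, SDH3 by 0.66 to 0.88 and SDH4 by 0.75 to 1.17. In the YHP1 experiment the SDH1 and SDH4 calls rested on single libraries: in ctrl_YHP1 both were lost at 20 min without replicate 1 or 2 at 20 min or replicate 3 at 0 min, SDH1 also without replicate 1 at 0 min (0.77 to 0.98), and in ctrl_yhp1_13A the SDH4 call was lost without replicate 1 or 3 at 0 min or replicate 1 or 2 at 20 min (0.61 to 0.68). The SDH1 calls at 60 min were lost in ctrl_YHP1 without replicate 1 or 2 at 60 min or replicate 3 at 0 min (0.77 to 0.94), and in ctrl_yhp1_13A without those or replicate 1 at 0 min (0.66 to 0.89).

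Yeast has no proton-pumping complex I, and of its 3 NADH dehydrogenase genes NDI1 was called higher in all 4 ctrl_ strains at 20 min, NDE2 in the strains of the YHP1 experiment and NDE1 in none. NDI1, the enzyme that faces the matrix, had 41.5, 38.6 and 49.2 TPM at 0 min, 114, 113 and 114 TPM at 20 min and 60.8, 62.3 and 70.5 TPM at 60 min in ctrl_YOX1. In ctrl_YHP1 it had 34.0, 50.1 and 49.8 TPM at 0 min, 89.9, 77.3 and 62.0 TPM at 20 min and 57.1, 63.2 and 42.9 TPM at 60 min. NDI1 rose in all 4 strains at 20 min, by 1.38 and 1.45 in ctrl_YOX1 and ctrl_yox1_9A and by 0.77 and 0.73 in ctrl_YHP1 and ctrl_yhp1_13A, although the call in ctrl_yhp1_13A was lost without its replicate 1 at 0 min (0.54). NDE1, the main external enzyme, had 327, 305 and 329 TPM at 0 min, 280.3, 355 and 323 TPM at 20 min and 314, 285 and 320.2 TPM at 60 min in ctrl_YOX1, so its libraries overlapped. In ctrl_yhp1_13A NDE1 fell to 234, 278 and 198 TPM at 20 min, against 317, 409 and 345 TPM at 0 min (-0.60, SE 0.16, adjusted p = 0.00415 in limma), and was at 324, 330.5 and 269 TPM at 60 min. The call was lost without replicate 2 at 0 min (-0.50) or replicate 3 at 20 min (-0.48) and with median-centred libraries (-0.52). The change in ctrl_YHP1, with 227, 291 and 177 TPM at 20 min against 291, 415 and 320 TPM at 0 min, was -0.57 (adjusted p = 0.00541) and missed the fold threshold. NDE2 was the lowest gene, with 1.50, 1.27 and 1.74 TPM at 0 min, 3.00, 2.53 and 3.40 TPM at 20 min and 2.35, 1.90 and 2.32 TPM at 60 min in ctrl_YHP1. It rose in ctrl_YHP1 and ctrl_yhp1_13A at 20 min (0.67 and 0.64), a scale on which the pseudocount of 1 TPM understates the change of so low a gene, and with a pseudocount of 5 TPM neither was called (0.29 and 0.28); the call in ctrl_yhp1_13A was also lost without replicate 2 at 0 min (0.54) or replicate 3 at 20 min (0.58). NDE2 made up a median of 0.442%, 1.12% and 0.714% of the summed NDE1 and NDE2 TPM at 0, 20 and 60 min in the YHP1 experiment.

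Complex III genes passed the threshold more often than those of complexes IV and V. At 20 min 7 of the 9 were called in ctrl_YOX1 and in ctrl_yox1_9A and 4 of 9 in ctrl_YHP1 and in ctrl_yhp1_13A. The 4 called in every strain were CYT1 (cytochrome c1, 0.77 to 1.08), RIP1 (the Rieske iron-sulfur protein, 0.72 to 0.96), QCR6 (0.62 to 0.85) and QCR10 (0.73 to 0.99). QCR10 had 157, 199.8 and 220.4 TPM at 0 min, 356, 398 and 361 TPM at 20 min and 281, 272 and 274 TPM at 60 min in ctrl_YOX1. In ctrl_YHP1 it had 183, 214 and 148 TPM at 0 min, 381, 362 and 222 TPM at 20 min and 322, 349 and 201 TPM at 60 min, with replicate 3 the lowest at each time. Its calls at 20 min in the YHP1 experiment were lost without single libraries (replicate 1 or 2 at 20 min or replicate 3 at 0 min in both strains, and replicate 1 at 0 min in ctrl_yhp1_13A). QCR10 was also called in ctrl_YHP1 at 60 min (0.65). That call was lost with no filter, median-centred libraries, only the groups compared or no mean-variance trend in limma. It was also lost without replicate 1 or 3 at 0 min or replicate 1 or 2 at 60 min (0.50 to 0.67). QCR7 and QCR8 were called nowhere, with 0.56 and 0.43 in ctrl_YOX1.

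In complex IV 3 of 9 genes were called at 20 min in ctrl_YOX1, ctrl_yox1_9A and ctrl_YHP1 (COX4, COX6 and COX5B) and 1 in ctrl_yhp1_13A (COX5B). COX5B, the hypoxic form of subunit 5, had 30.2, 30.4 and 38.1 TPM at 0 min, 57.1, 65.2 and 51.3 TPM at 20 min and 42.4, 46.9 and 43.2 TPM at 60 min in ctrl_YOX1. In ctrl_YHP1 COX5B was at 39.1, 36.8 and 47.0 TPM at 0 min, 100.5, 71.6 and 81.2 TPM at 20 min and 55.6, 47.3 and 41.5 TPM at 60 min. All libraries at 20 min lay above all at 0 min in the 4 strains, and the change was 0.80 to 1.02. COX5A, the aerobic form, had 346, 349 and 380.1 TPM at 0 min, 508, 525 and 516 TPM at 20 min and 421, 399 and 412 TPM at 60 min in ctrl_YOX1. In ctrl_YHP1 it was at 334, 410.4 and 311 TPM at 0 min, 467, 514 and 321 TPM at 20 min and 486, 515 and 333 TPM at 60 min. COX5A did not pass the threshold in any strain (0.28 to 0.53 at 20 min), and COX5B remained the minor form, with a median of 8.38%, 9.96% and 9.24% of the summed COX5A and COX5B TPM at 0, 20 and 60 min in the YOX1 experiment and 10.2%, 13.3% and 9.67% in the YHP1 experiment. The subunit genes COX7, COX8, COX9, COX12 and COX13 also stayed under the threshold throughout.

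None of the 7 ATP synthase genes was called by limma in any ctrl_ strain at either time. Their medians at 20 min were 0.41 in ctrl_YOX1, 0.35 in ctrl_yox1_9A, 0.10 in ctrl_YHP1 and 0.14 in ctrl_yhp1_13A, and 7, 6, 3 and 2 of the 7 had an unadjusted p under 0.05 in those strains. The single genes ranged from 0.18 to 0.54 in ctrl_YOX1 and from -0.14 to 0.43 in ctrl_YHP1 at 20 min. The plot of levels by library shows ATP1, the alpha subunit of the catalytic head, as an example of this group.

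Of the 2 cytochrome c genes CYC7 changed differently in the 2 experiments, as did HAP4, and CYC1 did not pass the test of that difference. CYC1 had 775, 761 and 1254 TPM at 0 min, 1542, 1974 and 2067 TPM at 20 min and 975, 1392 and 1754 TPM at 60 min in ctrl_YOX1. In ctrl_YHP1 CYC1 was at 846, 515 and 423 TPM at 0 min, 1640.0, 1295 and 719.7 TPM at 20 min and 1219, 812 and 384 TPM at 60 min. The change at 20 min was 1.03 in ctrl_YOX1 (SE 0.20, called) and 1.02 in ctrl_YHP1 (SE 0.50, adjusted p = 0.0996 in limma), where the replicates lay far apart at each time. The mean change over both ctrl_ strains of the YHP1 experiment at 20 min was called (0.97, SE 0.35, adjusted p = 0.0195 in limma). Within each replicate number of ctrl_YHP1, CYC1 was higher at 20 min than at 0 min. CYC7, the hypoxic form, had 10.4, 9.25 and 19.4 TPM at 0 min, 93.4, 104 and 77.9 TPM at 20 min and 25.5, 26.8 and 35.0 TPM at 60 min in ctrl_YOX1. In ctrl_yox1_9A the values were 8.78, 10.7 and 21.3 TPM at 0 min, 97.6, 110.1 and 87.9 TPM at 20 min and 21.1, 26.4 and 31.9 TPM at 60 min. Its rise at 20 min of 2.79 and 2.86 (SE 0.27, adjusted p = 1.46e-09 and 7.88e-10 in limma) was the largest of the 44 genes in both strains.

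In the YHP1 experiment the CYC7 values went with the replicate number. The ctrl_YHP1 libraries had 13.7, 49.8 and 55.6 TPM at 0 min, 151, 66.1 and 48.8 TPM at 20 min and 33.6, 33.0 and 17.6 TPM at 60 min. The ctrl_yhp1_13A libraries had 13.2, 62.0 and 72.5 TPM at 0 min, 120.5, 53.4 and 46.7 TPM at 20 min and 33.0, 25.7 and 17.6 TPM at 60 min. Replicate 1 was thus low at 0 min and high at 20 min, and replicates 2 and 3 were already high at 0 min. Compared within a replicate number, the change at 20 min in ctrl_YHP1 was 3.37 in replicate 1, 0.40 in replicate 2 and -0.19 in replicate 3, and in ctrl_yhp1_13A it was 3.10, -0.21 and -0.62. In ctrl_YOX1 the same within-number changes were 3.05, 3.36 and 1.95, and in ctrl_yox1_9A 3.33, 3.25 and 1.99. CYC7 was not called in either strain of the YHP1 experiment (1.19 and 0.76, SE 0.63). Over all 4 strains of the YHP1 experiment, CYC7 at 0 min ranged from 13.2 to 25.4 TPM in replicate 1, 49.8 to 100.5 TPM in replicate 2 and 55.6 to 79.2 TPM in replicate 3.

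HAP4, the regulatory subunit of the Hap complex, had a like split. It was at 37.4, 30.4 and 40.1 TPM at 0 min, 86.4, 99.98 and 93.5 TPM at 20 min and 55.8, 67.4 and 66.7 TPM at 60 min in ctrl_YOX1, and rose by 1.36 at 20 min and 0.80 at 60 min (SE 0.14). In ctrl_yox1_9A its values were 32.7, 35.8 and 40.5 TPM at 0 min, 98.6, 109 and 89.0 TPM at 20 min and 51.0, 61.7 and 65.8 TPM at 60 min. In ctrl_YHP1 HAP4 was at 42.6, 85.7 and 59.8 TPM at 0 min, 71.0, 59.3 and 56.9 TPM at 20 min and 55.4, 54.3 and 42.6 TPM at 60 min, a change of 0.04 at 20 min (SE 0.27). Within replicate numbers that change was 0.72, -0.53 and -0.07 in ctrl_YHP1 and 0.70, -0.68 and -0.19 in ctrl_yhp1_13A, against 1.19, 1.69 and 1.20 in ctrl_YOX1. The part of the replicate number in these results was not tested, as the labels do not say what it stands for.

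**Figure D3:**
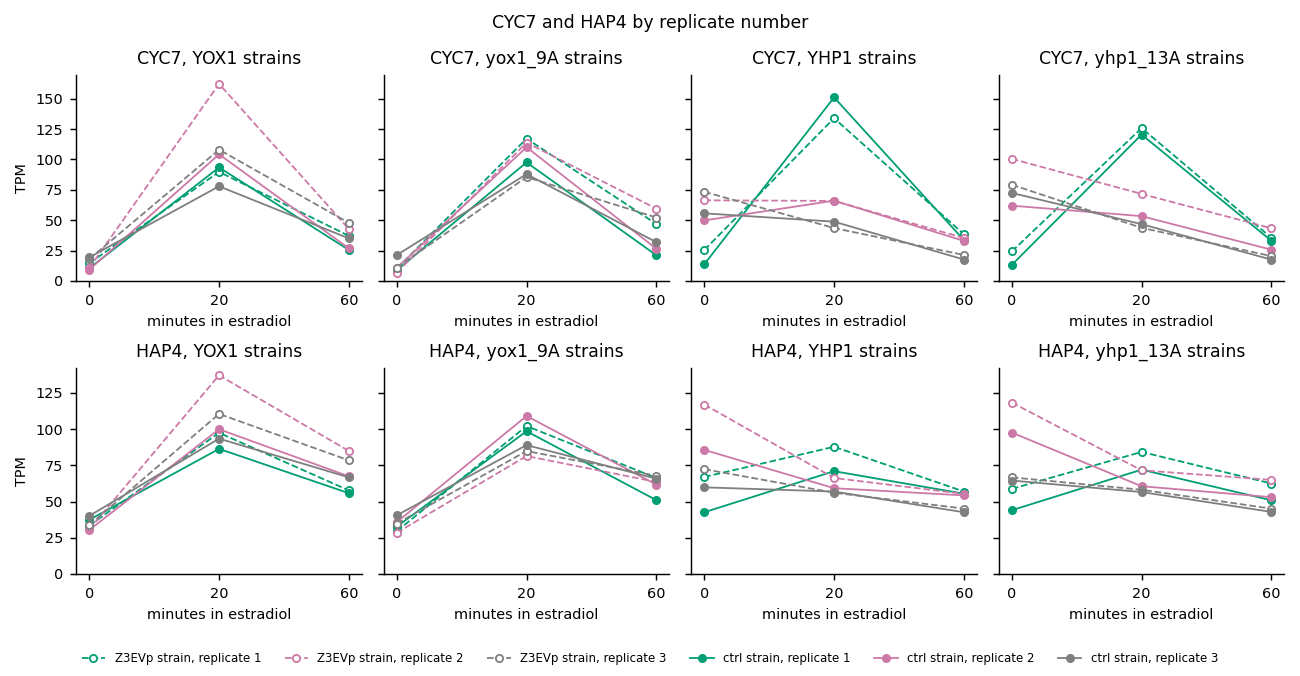
TPM of CYC7 and HAP4 (linear axis from 0) in every library at 0, 20 and 60 min, with lines that join the 3 times of a strain within a replicate number, for the YOX1 and YHP1 experiments. In the YHP1 experiment CYC7 at 0 min is 13.2 to 25.4 TPM in replicate 1 and 49.8 to 100.5 TPM in replicate 2.

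The difference between experiments was then tested in a limma fit over both tables, chosen after these values were seen, in which each table supplies its own 0 min libraries. Over the 44 genes the median difference, YOX1 minus YHP1 experiment, was 0.18 at 20 min, beside 0.04 for all genes. At that time 36 of the 44 were above 0 and 13 had an unadjusted p under 0.05. The medians at 60 min were 0.05 and 0.03. At 20 min the mean change of the ctrl_ strains was called larger in the YOX1 experiment for 3 of the 44 genes and smaller for none, against 2.5% and 0.354% of 6209 genes. These were CYC7 (difference 1.85, SE 0.50, adjusted p = 0.0115), NDI1 (0.67, adjusted p = 0.00722) and NDE1 (0.64, adjusted p = 0.00166), and the NDE1 difference was under the fold threshold without replicate 2 of ctrl_YHP1 at 0 min (0.57) or its replicate 3 at 20 min (0.55) and with median-centred libraries (0.55). For CYC1 the difference was 0.03 at 20 min (adjusted p = 0.974) and 0.24 at 60 min (adjusted p = 0.76). For HAP4 the difference was 1.40 at 20 min (adjusted p = 7.93e-06) and 1.08 at 60 min (adjusted p = 0.00166). No gene of the 44 was called at 60 min (1.06% and 0.145% of all genes), with 3 at an unadjusted p under 0.05, CYC7 at 1.56 (adjusted p = 0.0527) among them. With each of 5 ctrl_ libraries left out in turn (replicate 1 of ctrl_YOX1 at 60 min, replicate 3 of ctrl_YOX1 or ctrl_yox1_9A at 0 min, replicate 1 of ctrl_YHP1 or ctrl_yhp1_13A at 0 min), 1 of the 44 was called at 60 min.

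The second comparison asks what induction of Yox1 or Yhp1 added, as the change of a Z3EVp_ strain minus the change of its ctrl_ strain. Of these genes only CYC7 and COR1 were called in this comparison, both for Yox1-9A at 60 min. A gene that was not called can still have changed. The Z3EVp_ strains themselves showed the rise: at 20 min 31 of the 44 genes were called higher in Z3EVp_YOX1 (8.51% of all genes), 28 in Z3EVp_yox1_9A (9.19%), 11 in Z3EVp_YHP1 (5.59%) and 11 in Z3EVp_yhp1_13A (6.04%), and none was lower (8.89%, 9.77%, 10.5% and 10.5% of all genes). With median-centred libraries 17 and 18 were called in Z3EVp_YHP1 and Z3EVp_yhp1_13A. At 60 min 7 (5.56%), 11 (9.18%), 4 (2.65%) and 3 (3.6%) were higher, and 1, COR1, was lower in Z3EVp_yox1_9A (4.51%) and none in the other strains (3.65%, 4.03% and 3.63%). CIT1 had 621, 794 and 658 TPM at 20 min in Z3EVp_YOX1, against 578, 592 and 562 TPM in ctrl_YOX1, and 734, 598 and 539 TPM in Z3EVp_YHP1, against 678, 576 and 531 TPM in ctrl_YHP1.

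After subtraction none of the 44 genes was called by limma for Yox1 at 20 min (0.16% of all genes higher and 2.4% lower) or 60 min (0.368% and 2.38%), or for Yox1-9A at 20 min (0.176% and 2.17%). The same held for Yhp1 at 20 min (0.0161% and 0.0803%) and 60 min (0.0161% and 0.0642%) and for Yhp1-13A at 20 min (0.0161% and 0.337%) and 60 min (0.0161% and 0.482%). An unadjusted p under 0.05 was seen for 1, 2 and 2 of the 44 in the Yox1 contrasts at 20 and 60 min and Yox1-9A at 20 min, and for none in the 4 Yhp1 contrasts. The medians over the 44 lay between -0.09 and 0.11 in the 8 contrasts. For Yox1-9A at 60 min 1 gene was higher, CYC7, and 1 lower, COR1, against 1.15% and 3.18% of all genes, and 4 of the 44 had an unadjusted p under 0.05. The median of all genes in that contrast was 0.13, so changes in it are relative to that shift.

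**Figure D4:**
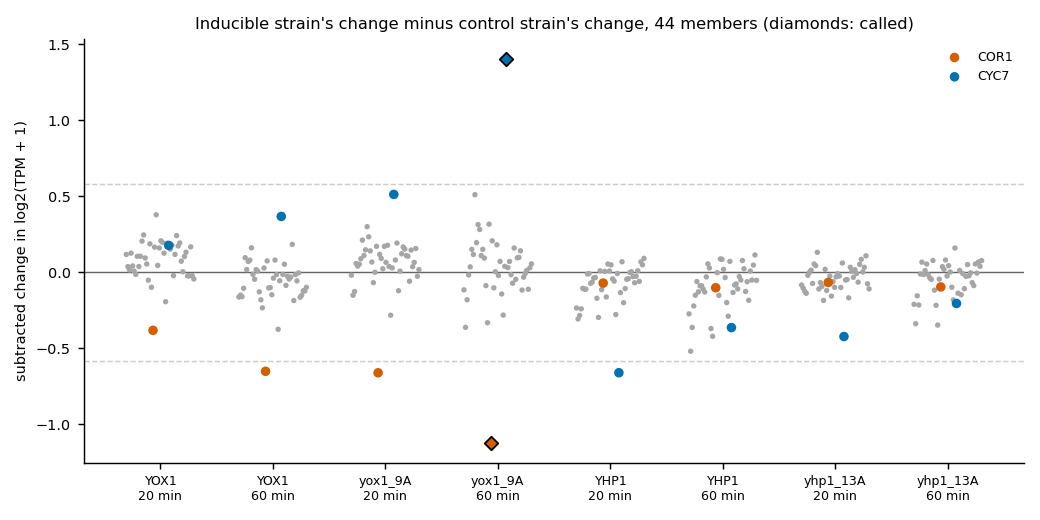
Change of each Z3EVp_ strain minus that of its ctrl_ strain, in log2(TPM + 1), for the 44 genes at 20 and 60 min. Diamonds passed the limma thresholds and circles did not, with COR1 and CYC7 in colour. COR1 lies at -1.12 and CYC7 at 1.40 for Yox1-9A at 60 min, and no other point is a diamond.

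COR1 encodes a core subunit of complex III, and was singled out after its values were seen. At 60 min it had 127, 90.4 and 92.8 TPM in Z3EVp_yox1_9A, against 200.1, 184 and 241 TPM in ctrl_yox1_9A. At 20 min the values were 249, 163 and 169 TPM in Z3EVp_yox1_9A and 286, 279.8 and 272 TPM in ctrl_yox1_9A, and at 0 min they were 192, 174 and 180.3 TPM and 170.2, 149.7 and 188 TPM. The 60 min libraries of Z3EVp_yox1_9A lay below every other library of both strains. The subtracted change was -1.12 (SE 0.19, adjusted p = 0.000139 in limma) and stayed called in all 9 other settings and with each of 12 libraries left out, between -1.28 and -1.01. With wild type Yox1, COR1 had 144, 159.8 and 171 TPM at 60 min in Z3EVp_YOX1, against 214, 233 and 255 TPM in ctrl_YOX1, with no overlap. That subtracted change of -0.65 was not called (adjusted p = 0.0577), nor was -0.66 for Yox1-9A at 20 min (adjusted p = 0.0673) or -0.38 for Yox1 at 20 min (adjusted p = 0.676). With median-centred libraries 1 of the 44 genes was called lower for Yox1 at 60 min and 1 for Yox1-9A at 20 min. Without replicate 3 of ctrl_YOX1 or replicate 2 of Z3EVp_YOX1 at 0 min, 1 of the 44 genes was called lower for Yox1 at 60 min, and for Yox1-9A at 20 min 1 was called lower without replicate 3 of ctrl_yox1_9A at 0 min or replicate 1 of Z3EVp_yox1_9A at 20 min. The change with Yox1-9A minus that with Yox1 at 60 min was -0.47 (SE 0.27, adjusted p = 1.00), so the 2 proteins were not shown to differ. In the YHP1 experiment the subtracted change of COR1 was -0.07 and -0.10 for Yhp1 and -0.07 and -0.10 for Yhp1-13A at 20 and 60 min (SE 0.31).

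**Figure D5:**
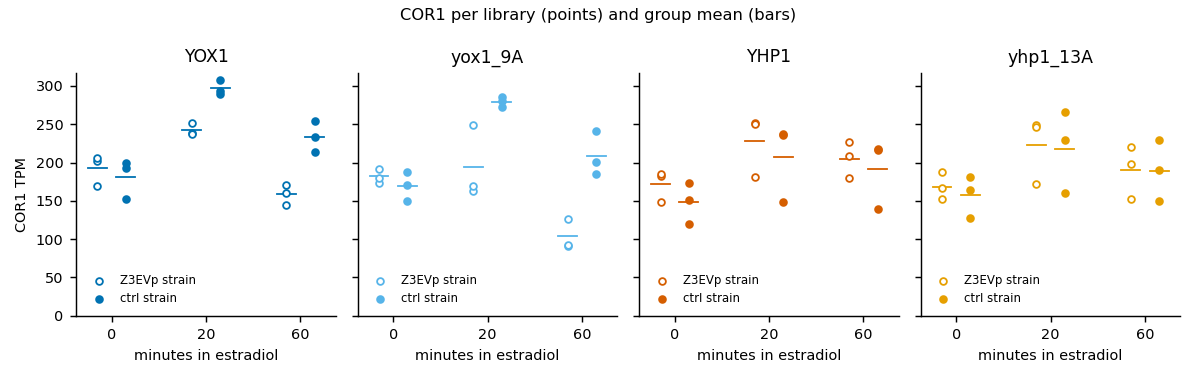
TPM of COR1 in every library of the Z3EVp_ and ctrl_ strains at 0, 20 and 60 min. The 3 libraries of Z3EVp_yox1_9A at 60 min are at 90.4 to 127 TPM, below all 3 of ctrl_yox1_9A at 184 to 241 TPM.

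COR1 lies on the minus strand of chromosome II, next to the divergent gene YBL044W, with 481 bases between the 2 coding sequences. The stretch chrII:135846-135996 of build R64 is shown because it holds matches to CCAAT and to a loose Mcm1 pattern nearest to each other, in capitals. The loose pattern is CC and GG with any 6 bases between, and overlapping matches to it run together. It does not ask for A or T in the middle, so a match is not taken as an Mcm1 site.
COR1: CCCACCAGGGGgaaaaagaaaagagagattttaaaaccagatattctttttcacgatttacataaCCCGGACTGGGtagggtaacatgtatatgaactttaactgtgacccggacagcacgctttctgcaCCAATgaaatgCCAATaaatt
The loose Mcm1 pattern occurred in the 500-base window of 26 of the 44 genes (59.1%), against 49.2% of all 6000, and TAATTA, the core of a homeodomain site, in 14 (31.8%), against 24.6%.

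CYC7 was the other gene called for Yox1-9A at 60 min. It had 46.9, 59.5 and 52.2 TPM in Z3EVp_yox1_9A at 60 min, against 21.1, 26.4 and 31.9 TPM in ctrl_yox1_9A, and 10.2, 6.90 and 11.0 TPM against 8.78, 10.7 and 21.3 TPM at 0 min. The subtracted change was 1.40 (SE 0.38, adjusted p = 0.0174 in limma). It missed the threshold where only the 4 groups of the contrast were fitted (adjusted p = 0.0571), without replicate 1 of ctrl_yox1_9A at 60 min (adjusted p = 0.0691) or its replicate 3 at 0 min (1.05, adjusted p = 0.0867), and without replicate 2 of Z3EVp_yox1_9A at 0 min (adjusted p = 0.0712) or 60 min (adjusted p = 0.0552). In Z3EVp_YOX1 at 60 min CYC7 was at 37.1, 42.7 and 47.8 TPM, against 25.5, 26.8 and 35.0 TPM in ctrl_YOX1, a subtracted change of 0.37 (SE 0.38). Between Yox1-9A and Yox1 that change differed by 1.04 (SE 0.53), which was not called. No subtracted change differed between phosphomutant and wild type protein for any of the 44 genes at 20 or 60 min, none had an unadjusted p under 0.05, and over all genes 0% and 0.224% were called lower for Yox1-9A against Yox1 at 20 and 60 min and 0% and 0.0161% for Yhp1-13A against Yhp1.

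Genes around the 44 were described from lists of the same pathways, whose counts stand beside the 7.99%, 7.1%, 7.58% and 7.08% of all genes that rose at 20 min in ctrl_YOX1, ctrl_yox1_9A, ctrl_YHP1 and ctrl_yhp1_13A and the 7.64%, 8.9%, 11.6% and 10.4% that fell. Of 15 tested genes of other TCA cycle and glyoxylate enzymes, 7, 6, 7 and 5 rose in those strains and 0, 0, 1 and 1 fell. CIT2, the peroxisomal citrate synthase and the classic Rtg1/Rtg3 target, rose by 2.19, 2.22, 1.87 and 1.74, and SDH6, an assembly factor of complex II, by 2.06, 1.94, 2.50 and 2.35. MDH2, the cytosolic malate dehydrogenase of gluconeogenesis, fell by 1.34 and 1.30 in the YHP1 experiment at 20 min and in all 4 strains at 60 min. Of 10 genes of pyruvate dehydrogenase and anaplerosis 2, 2, 1 and 1 rose at 20 min, with PYC1, a pyruvate carboxylase that refills the cycle with oxaloacetate, by 1.84, 1.76, 2.77 and 2.65. Of 8 genes on a list of other dehydrogenases, 5, 4, 3 and 3 rose, led by DLD3 (1.71, 1.75, 2.17 and 2.11) and CYB2 (1.31, 1.33, 1.31 and 1.12). CYB2 encodes the lactate dehydrogenase that reduces cytochrome c.

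Beyond the 7 core genes of complex V, 3 to 4 of 10 other ATP synthase genes rose at 20 min, and in every strain these included STF1, STF2 and INH1, which encode inhibitors of the enzyme or their stabilizing partner. STF1 rose by 2.00, 1.96, 2.14 and 2.05. None of the 8 heme synthesis genes was called by limma at either time, with 1 to 5 at an unadjusted p under 0.05. Of 26 assembly genes of complexes III and IV, 3, 3, 3 and 2 rose at 20 min. CYC3, the heme lyase of cytochrome c, fell by 0.79 and 0.66 in ctrl_YHP1 and ctrl_yhp1_13A, and COX26, a small protein of the respiratory supercomplex, rose by 2.38 and 2.92 in ctrl_YOX1 and ctrl_yox1_9A, with 0.21 and -0.07 (SE 0.69) in ctrl_YHP1 and ctrl_yhp1_13A. Of 21 regulators 2, 2, 1 and 1 rose at 20 min and 1, 2, 5 and 4 fell. RPM2 rose in all 4 strains at 20 min (0.66 to 1.57) and MIG3, a repressor related to Mig1, fell in all 4 (-1.87 to -1.07). HAP1, the heme-dependent activator of CYC1 and CYC7, fell by 0.86 and 0.88 in ctrl_YHP1 and ctrl_yhp1_13A at 20 min, with values of -0.41 and -0.39 under the fold threshold in ctrl_YOX1 and ctrl_yox1_9A.

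Among 10 tested hypoxic genes 3, 3, 4 and 3 fell at 20 min and 0, 0, 1 and 2 rose. OLE1, the fatty acid desaturase, fell by 2.32, 2.38, 2.98 and 2.83, while CPR1, a cyclophilin gene, rose by 0.64 in both strains of the YHP1 experiment and PAU5 by 0.71 in ctrl_yhp1_13A. Of 13 glucose-repressed genes outside respiration 2, 2, 1 and 1 rose at 20 min and 2, 1, 1 and 1 fell. HXK1 (hexokinase 1) rose in every strain, by 3.14, 3.23, 2.67 and 2.16, and HXT2, a hexose transporter, fell in every strain, by 1.23, 1.33, 2.82 and 2.97. After subtraction, OLE1 was higher with Yox1 and Yox1-9A at 20 min (0.67 and 0.75), and for Yox1-9A at 60 min CIT2 and the coenzyme Q gene COQ5 were lower (-0.71 and -0.61) and the carrier DIC1 and the lactate dehydrogenase DLD1 higher (0.68 and 0.76).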

How the data were processed

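RNA was measured in 72 libraries of 24 strain-by-time groups, grouped by the labels. The authors aligned reads with STAR 2.5.3a to R64 and counted them with featureCounts 1.5.2, per the submitters' processing notes, and deposited TPM in 2 tables of 6857 and 6865 genes. Neither depth nor strand could be learned from the sources, so overlapping genes cannot be told apart and no counting interval is given. TPM summed to 999743.6 to 999841.2 per library. limma 3.58.1 (R 4.3.3) was fitted to log2(TPM + 1) per table, over all 12 groups, for genes whose mean over libraries reached 1 TPM (6255 and 6230), with 46 contrasts and Benjamini-Hochberg adjustment over all genes of each. Genes with adjusted p under 0.05 and a log2 difference above 0.58 in size were called. The study tested counts, which were not analysed here. The script was tested on simulated data. Where replicates are not separate cultures, p-values reflect only the spread among these samples, which may be technical.

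The members and lists were chosen with earlier results of these data known. Values by library were given for at most 12 called genes, those called in most contrasts, for the isoform pairs and for HAP4, and at most 3 called genes were named per other list and contrast. COR1 and the fit over both tables were chosen after the values were seen. Alternatives were other pseudocounts, no filter, no minimum fold, median-centred libraries, fits of only the groups compared, a replicate block and each library left out. Upstream windows of 500 bases before annotated start codons came from the RefSeq R64 genome.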

Additional observations from a re-analysis of the deposited data

Results flagged for a closer look

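For 5 results the changes of the ctrl_ strains differed between the YOX1 and YHP1 experiments in the limma fit over both tables. At 20 min the change in the YOX1 experiment minus that in the YHP1 experiment was 1.85 for CYC7 (2.82 against 0.97), 1.40 for HAP4 (1.39 against -0.01), 0.67 for NDI1 (1.42 against 0.75) and 0.64 for NDE1 (0.06 against -0.59). At 60 min it was 1.08 for HAP4 (0.75 against -0.33). The strains, the table and any difference in handling cannot be told apart in these comparisons. In the YHP1 experiment CYC7 at 0 min was at 13.2 to 25.4 TPM in replicate 1. It was at 49.8 to 100.5 TPM in replicate 2 and 55.6 to 79.2 TPM in replicate 3. The part of the replicate number in these differences was not tested.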

How the results depend on the processing

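Of 820 alternative values for 93 named gene results, 806 kept their direction and side of the threshold, as did 611 of 660 with a library left out, and none turned in direction. Without a minimum fold 41, 26, 39 and 25 of the 44 genes were called in ctrl_YOX1 at 20 and 60 min and ctrl_yox1_9A at 20 and 60 min, 12 and 9 in ctrl_YHP1 and ctrl_yhp1_13A at 60 min, and 5 and 2 between experiments at 20 and 60 min. With only the groups compared, 3 were called in ctrl_yhp1_13A at 60 min and 1 in the subtracted Yox1-9A change at 60 min. With median-centred libraries 1 was called lower in the subtracted change at 60 min for Yox1 and at 20 min for Yox1-9A, and 4, 17 and 18 rose in Z3EVp_YOX1 at 60 min, Z3EVp_YHP1 at 20 min and Z3EVp_yhp1_13A at 20 min. In settings chosen after seeing the data, leaving out all libraries numbered 1 gave 9 and 4 in ctrl_YHP1 and 10 and 3 in ctrl_yhp1_13A at 20 and 60 min, and leaving out those numbered 3 gave 12 and 10 at 60 min.

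With each library left out in turn, counts were 25 to 30 and 8 to 13 in ctrl_YOX1 at 20 and 60 min, 24 to 28 and 7 to 14 in ctrl_yox1_9A, 10 to 23 and 4 to 16 in ctrl_YHP1, and 10 to 20 and 3 to 11 in ctrl_yhp1_13A. For the subtracted changes they were 0 to 0 and 0 to 1 for Yox1, 0 to 1 and 1 to 2 for Yox1-9A and 0 to 0 for Yhp1 and Yhp1-13A, and between experiments 2 to 3 at 20 min and 0 to 1 at 60 min. The cause was not tested.

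Same-numbered libraries had correlated deviations from their group means. The mean was 0.153 and 0.339 in the YOX1 and YHP1 experiments, and -0.0766 and -0.168 for different numbers. The deviations of the 3 libraries of a group sum to 0, so the values for different numbers follow from the others and add nothing to them. Of 198 same-number pairs 129 and 173 were above 0.1, with lowest values of -0.595 and -0.194. Each library correlated best with its own number in 27 and 36 of 36 cases, a hint from the data and not the design. Libraries thus shared structure by number, most of all in the YHP1 experiment. The sources do not state a pairing, so the main fits left the numbers out and a replicate block was fitted as an alternative. With a replicate block 11 and 9 genes were called in ctrl_YHP1 and ctrl_yhp1_13A at 60 min, 7 and 7 in Z3EVp_YHP1 and Z3EVp_yhp1_13A at 60 min, 1 lower for subtracted Yox1 at 60 min and Yox1-9A at 20 min, and 1 between experiments at 60 min.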
